A study of Mus musculus with 28 samples.

Results

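Fabp1, Fabp2 and Fabp5 encode fatty acid-binding proteins of the liver, the intestine and the epidermis, the names under which they were first described. They are the members described here: all spots that the array's annotation names Fabp1, Fabp2 or Fabp5, which came to 6 of 16416 spots, or 3 of 4799 named genes. Each gene had 2 spots. The genes were chosen by their measured ratios between the groups in these same samples, so those ratios are given as a description without a test.

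Fatty acid-binding proteins are small cytosolic proteins that hold long-chain fatty acids and related lipids in a closed barrel. They carry these poorly soluble molecules between membranes, enzymes and the nucleus, where some hand ligands to the nuclear receptors of the PPAR family. Fabp1 is the abundant form of hepatocytes and is known as a PPARalpha target. Fabp2 is the form of the small intestinal enterocyte, where it stands beside Fabp1. Fabp5 is known from epidermis, macrophages, adipocytes and endothelium, and is a minor form in hepatocytes.

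Liver RNA came from 15 mice of the inbred strain C57BL/6, aged 12 to 16 weeks, with 5 mice in each of 3 groups. Control mice received chow during 2 weeks, fasted mice received chow over the same time before 16 hours with no food, and the high-fat group was given a diet rich in fat for 2 weeks. All carried the same strain background, and no sex is stated in the sources used here. Each two-colour array set the amplified RNA of a mouse against that of another, and each of the 14 pairs was hybridised again with the dyes exchanged, giving 28 arrays. In 4 pairs a fasted mouse met a control, in 5 a high-fat mouse met a control, and in 5 a fasted mouse met a high-fat mouse.

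A value is the log2 ratio of the first-named over the second-named mouse of a pair, averaged over both spots and both arrays, so that -1 is a level of 0.5-fold. The direction and the log base are not stated by the authors, were read from the order of the titles and the listed dyes, and are likely, not certain. If the direction were turned, higher and lower would change places throughout. Signal brightness was not used here, so neither the level of a gene in any liver nor its distance from background is known, levels cannot be compared between genes, and the tissue cannot be checked against hepatocyte markers. The number of arrays limits the precision. In whole liver, fewer cells of a type and less RNA per cell cannot be told apart. Array medians ran from -0.23 to 0.35 and array standard deviations from 0.29 to 1.26. The widest array was the second of fasted 15 and control 2, and values without that pair are given where they differ most.

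The start regions of Fabp1 and Fabp2 are shown because both genes are commonly listed as PPARalpha targets while their ratios after fasting differed in sign. The sequences are RefSeq's, build GRCm38.p6, plus strand, and hold the 250 bases before the annotated start. Fabp1 lies at chr6:71199629-71199878 and Fabp2 at chr3:122894822-122895071. Fabp5 is named only. Capitals mark matches to 3 motifs searched on both strands.
Fabp1: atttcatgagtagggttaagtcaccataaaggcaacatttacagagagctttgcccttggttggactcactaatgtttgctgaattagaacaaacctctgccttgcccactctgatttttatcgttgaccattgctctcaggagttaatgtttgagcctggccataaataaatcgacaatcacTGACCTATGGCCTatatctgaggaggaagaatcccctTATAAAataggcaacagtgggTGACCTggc
Fabp2: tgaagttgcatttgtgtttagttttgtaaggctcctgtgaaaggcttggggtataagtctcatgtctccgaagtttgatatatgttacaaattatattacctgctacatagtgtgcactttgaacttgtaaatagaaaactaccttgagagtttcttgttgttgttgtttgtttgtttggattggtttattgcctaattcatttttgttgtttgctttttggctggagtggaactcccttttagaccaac

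The first motif, AGGNCANAGGNCA, spells the direct repeat with a spacer of 1 base that PPAR and RXR pairs are known to bind. It matched the Fabp1 window once, on the minus strand, from 67 to 55 bases before the start, where it reads AGGCCATAGGTCA. Of 32851 windows of the same length 111 held it, or 0.338%. The single repeat unit AGGTCA, held by 14.0% of windows, matched the minus strand of Fabp1 in 2 places, once inside the direct repeat and once from 9 to 4 bases before the start. The letters TATAAA, held by 12.4%, stood 30 to 25 bases before the Fabp1 start. None of the 3 motifs was found in the Fabp2 window, and looser spellings of the direct repeat were not searched in either window. A match is a match of letters, and binding was not measured.

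Fabp1 was lower in fasted livers and near the control level on the high-fat diet. Over the pairs of fasted with control mice its ratio was -1.20 for fasted 11 and control 4, -1.39 for fasted 13 and control 5, -0.43 for fasted 14 and control 3, and -2.38 for fasted 15 and control 2. All 4 pairs were below 0, and their mean was -1.35 ± 0.80 (SD, n = 4). The estimate from all 14 pairs together, a fit of 3 groups that also uses the indirect paths, was -1.30 ± 0.19 (SE), a 2.46-fold lower level. The pair with the largest ratio also held the widest array, and without it the estimate was -1.12.

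Against high-fat mice the Fabp1 ratio of fasted mice was -1.96 for fasted 13 and high-fat 8, -1.15 for fasted 12 and high-fat 6, -0.998 for fasted 11 and high-fat 9, -1.004 for fasted 14 and high-fat 7, and -2.18 for fasted 15 and high-fat 10. All 5 pairs were again below 0, with a mean of -1.46 ± 0.57 (SD, n = 5) and a joint estimate of -1.48 ± 0.18 (SE), or 2.80-fold. The difference of the other direct means, fasted to control less high-fat to control, gave -1.56. Most of its mice are also in the direct pairs, so it is no independent measurement.

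High-fat over control ratios of Fabp1 lay on both sides of 0. They were -0.04 for high-fat 8 and control 4, 0.45 for high-fat 10 and control 3, -0.13 for high-fat 7 and control 5, 0.39 for high-fat 9 and control 2, and 0.41 for high-fat 6 and control 1. The mean was 0.21 ± 0.28 (SD, n = 5), with 3 of 5 pairs above 0, and the joint estimate was 0.18 ± 0.18 (SE). In the order of Fabp1 levels fasted mice were lowest, and the mean ratio of the neighbours control and high-fat was smaller than the SD of its pairs.

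Fabp2 was higher in both treated groups. In fasted over control pairs the ratio was 0.51 for fasted 11 and control 4, 0.44 for fasted 13 and control 5, 1.03 for fasted 14 and control 3, and 0.90 for fasted 15 and control 2. All 4 were above 0, with a mean of 0.72 ± 0.29 (SD, n = 4). The joint estimate was 0.81 ± 0.12 (SE), or 1.75-fold, and 0.80 without the pair of fasted 15 and control 2.

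The high-fat diet gave the larger Fabp2 ratios. They were 0.97 for high-fat 8 and control 4, 1.89 for high-fat 10 and control 3, 1.00 for high-fat 7 and control 5, 1.71 for high-fat 9 and control 2, and 1.61 for high-fat 6 and control 1. The lowest of these 5 lay below the highest of the fasted pairs, 1.03, so the pair ratios of both treatments overlapped. All 20 single spot readings behind them, 2 spots on each of 10 arrays, were above 0. The mean was 1.44 ± 0.42 (SD, n = 5) and the joint estimate 1.38 ± 0.11 (SE), or 2.60-fold, the fifth largest by size among 4799 named genes in that comparison.

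Set directly against each other, fasted mice had less Fabp2 than high-fat mice in 5 of 5 pairs. The ratios were -0.61 for fasted 13 and high-fat 8, -0.36 for fasted 12 and high-fat 6, -0.53 for fasted 11 and high-fat 9, -0.31 for fasted 14 and high-fat 7, and -0.72 for fasted 15 and high-fat 10. They lay close together, with a mean of -0.51 ± 0.17 (SD, n = 5) and a joint estimate of -0.57 ± 0.11 (SE), or 1.48-fold lower. The difference of the other direct means of Fabp2, fasted to control less high-fat to control, gave -0.72. The order of Fabp2 levels was therefore control, fasted and high-fat, from low to high.

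Fabp5 had the widest range of the 3 genes, with lower levels after fasting and higher ones on the high-fat diet. Its fasted over control ratio was -1.95 for fasted 11 and control 4, -2.26 for fasted 13 and control 5, -1.92 for fasted 14 and control 3, and -3.01 for fasted 15 and control 2. The mean was -2.29 ± 0.51 (SD, n = 4), and 16 of 16 single spot readings were below 0. The joint estimate was -1.98 ± 0.30 (SE), or 3.93-fold lower, and -1.81 without the pair of fasted 15 and control 2.

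High-fat over control ratios of Fabp5 were 2.91 for high-fat 8 and control 4, 1.63 for high-fat 10 and control 3, 1.19 for high-fat 7 and control 5, 0.32 for high-fat 9 and control 2, and 1.66 for high-fat 6 and control 1. All 5 were above 0 but spread widely, and the second array of high-fat 9 and control 2 alone was at -0.25. The mean was 1.54 ± 0.94 (SD, n = 5). The joint estimate of 1.31 ± 0.29 (SE), or 2.48-fold, was close in size to that of Fabp2 but had more than double its error. With arrays scaled to a common spread it was 2.09.

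Fasted over high-fat ratios of Fabp5 were the largest of any member. They were -3.19 for fasted 13 and high-fat 8, -3.02 for fasted 12 and high-fat 6, -4.11 for fasted 11 and high-fat 9, -1.56 for fasted 14 and high-fat 7, and -3.36 for fasted 15 and high-fat 10. The pair of fasted 14 and high-fat 7 stood nearest to 0 and fasted 11 and high-fat 9 farthest. The mean was -3.05 ± 0.93 (SD, n = 5), and the joint estimate of -3.28 ± 0.29 (SE), a 9.74-fold lower level, was the third largest by size among the 4799 named genes. For Fabp5 the difference of the other direct means, fasted to control less high-fat to control, gave -3.83. From low to high, the order of the mean Fabp5 levels was fasted, control and high-fat, but single controls overlapped both neighbours when mice were set out singly, and high-fat over control did not pass the threshold used for all features.

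**Figure D1:**
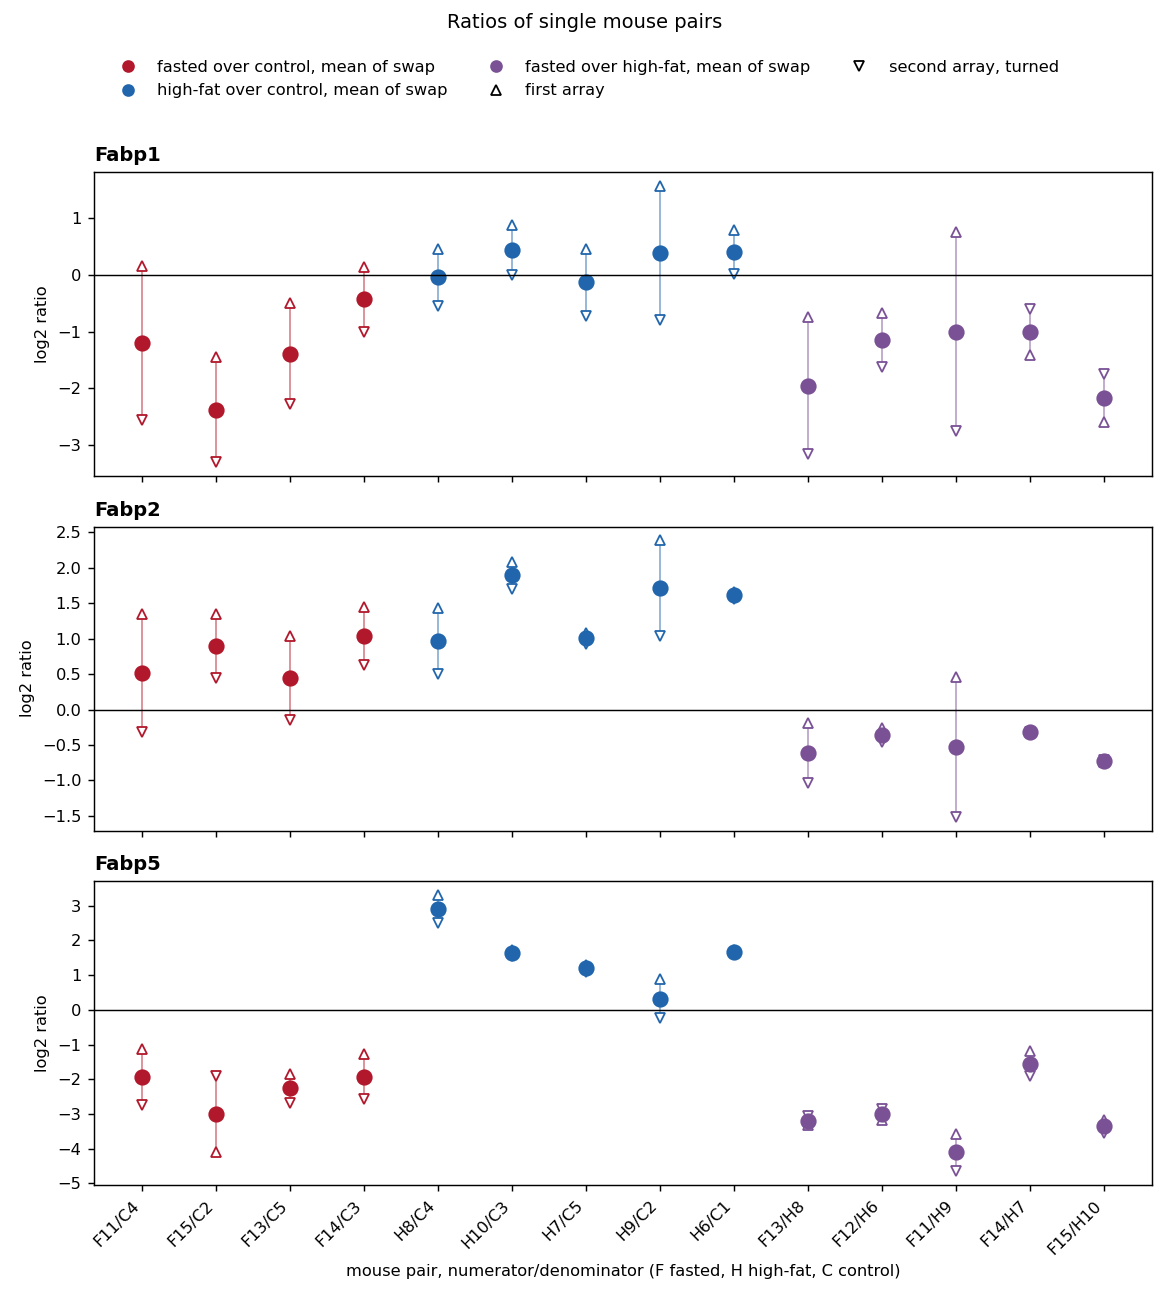
Each panel shows the log2 ratio of 1 gene in the 14 mouse pairs, with the filled point the mean of a dye swap and the open triangles its first and second array. All fasted over high-fat means lie below 0 for the 3 genes, Fabp2 is above 0 in all pairs with controls, and the triangles of Fabp1 are the farthest apart.

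Of the 3 members, 3 passed an adjusted p of 0.05 for fasted against control, Fabp2 as higher and the other 2 as lower, where 7.93% of 11457 features did, 3.35% as higher and 4.58% as lower. For high-fat against control 1 of 3 passed, Fabp2, as higher, against 0.349% of features in either direction, 0.0262% as higher and 0.323% as lower. For fasted against high-fat 3 of 3 passed, all as lower, against 5.46% of features, 2.7% as higher and 2.76% as lower. Since these comparisons chose the members, nothing is read from the counts.

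Of the 15 mice, 12 were linked by 12 pairs into a closed loop in which every mouse was set against 1 mouse of each other group. The loop gives each of the 12 mice a level of its own, stated here in log2 units relative to the mean of the 4 loop controls. Control 1, high-fat 6 and fasted 12 formed a separate chain and have no such level.

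Fabp2 levels did not overlap between any of the 3 groups of loop mice. Controls ran from -0.33 to 0.36, fasted mice from 0.63 to 0.92 and high-fat mice from 1.11 to 1.52. Fasted mice were the most alike, with a mean of 0.76 ± 0.12 (SD, n = 4), against 1.35 ± 0.19 (SD, n = 4) for high-fat mice and a SD of 0.31 for controls. Over all features 0.227% had 3 groups without overlap.

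Fabp1 levels of loop controls ran from -0.66 in control 3 to 0.62 in control 4, and those of high-fat mice from -0.20 to 0.58, inside the range of the controls. Fasted mice were at -0.59 for fasted 11, -1.09 for fasted 14, -1.36 for fasted 13 and -2.38 for fasted 15. Fasted 11 lay just above control 3, so fasted and control mice overlapped by this pair, while fasted and high-fat mice did not overlap.

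The loop levels of Fabp5 had the widest spread within each group. This spread includes measurement error, which was large for Fabp5, with a spread of 0.85 left around the fit. The error of a single level was not estimated, so differences between mice were not separated from it. Control 4 was at -1.47, control 5 at -0.23, control 3 at 0.58 and control 2 at 1.12. High-fat mice were at 0.71, 1.20, 1.20 and 1.96, with the highest in high-fat 10. Fasted mice were at -1.10 for fasted 14, -1.65 for fasted 15, -2.24 for fasted 13 and -3.16 for fasted 11. By these levels control 4 lay within the fasted range and control 2 within the high-fat range, and only fasted and high-fat mice did not overlap. Control 4, lowest of the controls in Fabp5, was the highest of them in Fabp1 and in Fabp2, at 0.62 and 0.36. Fasted and high-fat levels did not overlap for 3 of 3 members and for 4.39% of all features. Fasted and control levels did not overlap for 1 of 3 members and for 5.35%, and high-fat and control levels for 1 of 3 and for 1.65%.

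**Figure D2:**
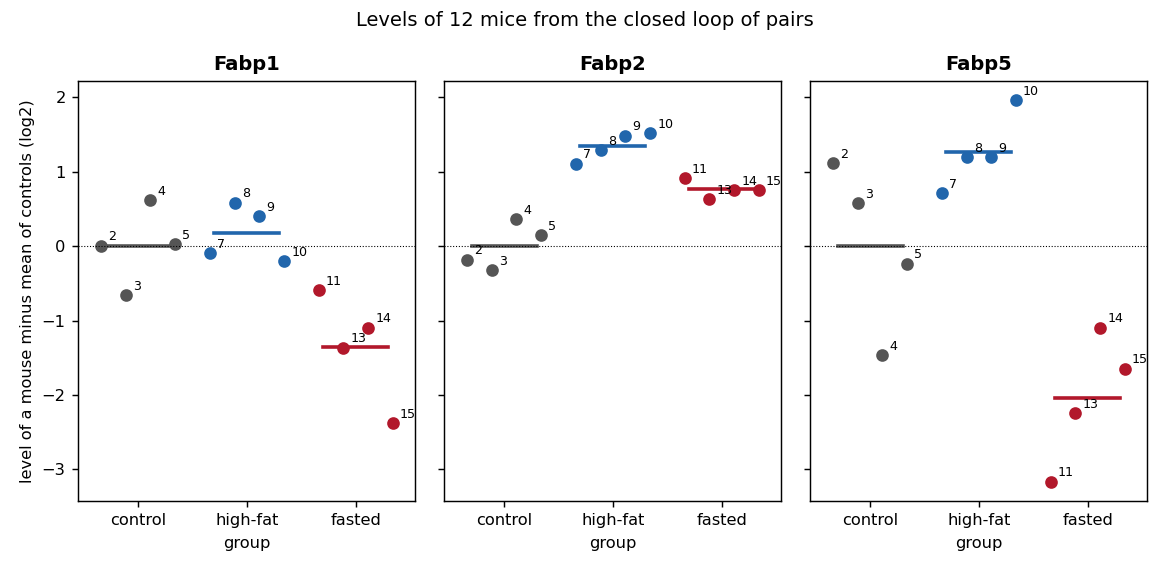
Points are the 12 loop mice, 4 in each group and labelled by mouse number, and bars are group means, in log2 units relative to the mean of the controls. The groups are separate for Fabp2, with controls up to 0.36, fasted mice from 0.63 and high-fat mice from 1.11, while control 4 at -1.47 lies among the fasted mice for Fabp5.

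The loop also measures error, since the ratios around it must sum to 0 whatever the diets did. The sum was -0.08 for Fabp1 and 0.51 for Fabp2, against a median size of 0.57 over all features. For Fabp5 it was 2.97, or 0.25 for each of the 12 pairs, and 0.559% of features had a larger one. The sum is 1 value per gene in which errors of single pairs can cancel, and whether error differed between the genes was not tested. The spread left around the fit was also largest for Fabp5. It was 0.30 for Fabp2, near the median of 0.29 over all features, 0.53 for Fabp1 and 0.85 for Fabp5, and 0.454% of features had a larger spread than Fabp5.

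A dye bias passed the test for Fabp1 and Fabp2 and not for Fabp5, and whether the genes differed in it was not tested. This bias is the part of a ratio that keeps its sign when the dyes are exchanged, and it did not choose the members. Fabp1 had 0.68 ± 0.14 (SE) log2 units more signal in Cy5 than in Cy3, with more in Cy5 in 12 of 14 swaps (limma adjusted p = 0.00365). Fabp2 had 0.37 ± 0.08 more, also in 12 of 14 swaps (limma adjusted p = 0.00539). The bias of Fabp5 was 0.20 ± 0.11, with more in Cy5 in 11 of 14 swaps, and did not pass (limma adjusted p = 0.204). Of all features 20.7% passed in either direction, 10.8% with more Cy5 and 9.82% with more Cy3. Across the whole array, both arrays of a swap correlated positively before the sign change in 10 of 14 swaps. Their r ran from -0.508 in fasted 15 and high-fat 10 to 0.365 in high-fat 8 and control 4. A ratio without dye bias would change sign between these arrays.

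The bias differed among swaps. For Fabp1 it ran from -0.42 in fasted 15 and high-fat 10 to 1.76 in fasted 11 and high-fat 9, and both arrays of a swap gave Fabp1 the same sign in 8 of 14 swaps. In fasted 11 and high-fat 9 the first array of Fabp1 was at 0.76 and the second at -2.76. For Fabp2 the arrays had the same sign in 11 of 14 swaps, and the bias was again largest in fasted 11 and high-fat 9, at 0.99. For Fabp5 they had the same sign in 13 of 14, and its bias ran from -1.09 in fasted 15 and control 2 to 0.81 in fasted 11 and control 4.

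The average over a swap cancels a bias that is equal on both arrays, and single arrays show its size. First arrays alone put Fabp1 of fasted over control at -0.28 and second arrays alone at -2.32, and for Fabp2 they gave 1.38 and 0.24. Fabp1 of high-fat over control was at 0.74 on first arrays and at -0.37 on second arrays. The 3 genes kept the sign of their ratio on both sets in every comparison except this one.

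Duplicate spots followed each other closely. Over the 14 pairs the ratios of both spots of a gene correlated with r = 0.96 for Fabp1, 0.97 for Fabp2 and 0.96 for Fabp5, as a description of spots that share every hybridisation. The median gap between spots was 0.19 for Fabp1, 0.10 for Fabp2 and 0.40 for Fabp5. The largest was 1.64, for Fabp5 in fasted 11 and high-fat 9. Fitted alone, spot 1 of Fabp5 gave -2.25 for fasted over control and spot 2 gave -1.71.

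No other measured gene of the intracellular lipid-binding protein family passed the threshold in any comparison. Of 13 listed genes 5 had spots: Fabp3, the heart form, Fabp6, the ileal bile acid-binding form, Fabp9, the testis form, Rbp2, a cellular retinol-binding protein of the intestine, and Crabp1, a retinoic acid-binding protein. In fasted over control livers Fabp3 was at -0.24 ± 0.22 (SE), Fabp6 at 0.00 ± 0.15, Fabp9 at 0.07 ± 0.11, Rbp2 at 0.01 ± 0.08 and Crabp1 at 0.07 ± 0.10. On the high-fat diet the 5 genes lay between 0.00 and 0.13. The median of the 5 was 0.01 after fasting, equal to the 0.01 of all features. Whether spots of related genes bound each other's transcripts was not tested.

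**Figure D3:**
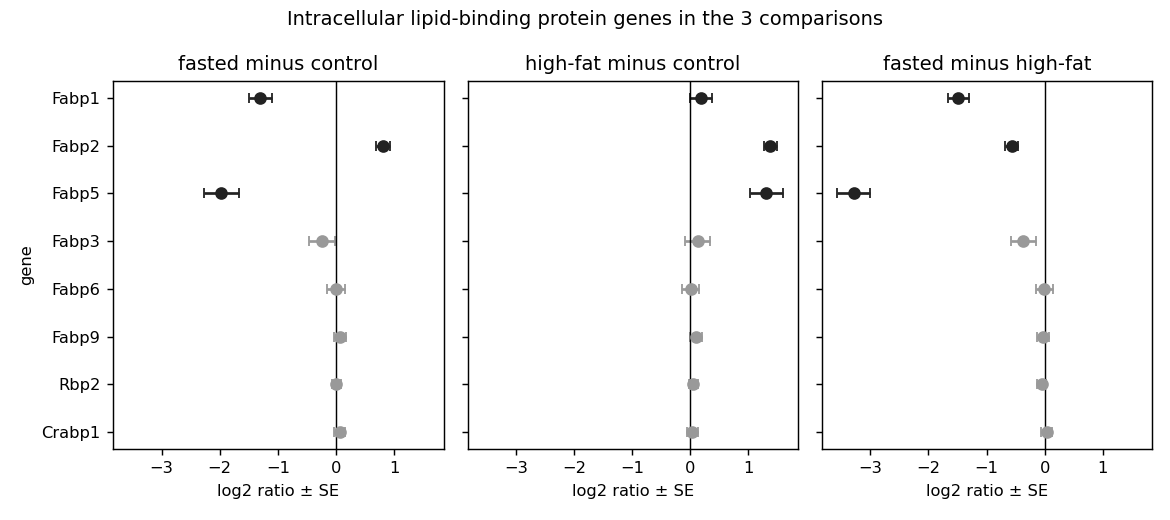
Points are log2 ratios from the fit over 14 pairs and bars are ± SE, in black for the 3 members and in grey for the 5 other measured genes of the family. The grey points lie between -0.37 and 0.13 in the 3 comparisons, whereas the members reach -3.28.

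Genes that take up, activate and carry fatty acids, the partners of these proteins, mostly did not pass the threshold. Of 20 listed genes 10 were measured, and after fasting 1 rose, 1 fell and 8 did not pass (median 0.03). Slc27a2, the very long-chain acyl-CoA synthetase, rose by 0.59 ± 0.07 (limma adjusted p = 5.4e-05) in 4 of 4 direct pairs. Lrp1, a receptor for lipoprotein remnants, was at -0.78 ± 0.12 (limma adjusted p = 0.000492), lower in 4 of 4. The fatty acid translocase Cd36 was at 0.22 ± 0.18 (limma adjusted p = 0.57), and lipoprotein lipase, Lpl, at -0.01 ± 0.08 (limma adjusted p = 0.963).

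On the high-fat diet 0 of the 10 passed, with a median of 0.00 and a range from -0.31 for Cd36 to 0.29 for Slc27a2. Between fasted and high-fat livers 1 rose, Slc27a2 (0.29 ± 0.07, limma adjusted p = 0.0157), and 1 fell, Lrp1 (-0.68 ± 0.12, limma adjusted p = 0.00149). The Slc27a2 call was lost in 7 of 15 omissions of a single mouse, with adjusted p up to 0.0816.

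Of 16 listed genes of triglyceride and lipoprotein assembly 6 were measured. Apoa4, an apolipoprotein of triglyceride-rich particles, had the same sign as Fabp2 against controls but the opposite order of treatments. It was at 4.62 ± 0.18 after fasting (limma adjusted p = 1.16e-10) and at 1.88 ± 0.18 on the high-fat diet (limma adjusted p = 1.33e-05). Apoa1, of high density lipoprotein, rose by 0.37 ± 0.09 after fasting (limma adjusted p = 0.0172), a call lost in 4 of 15 omissions of a mouse. Mttp, which loads lipid onto apolipoprotein B, was at 0.01 ± 0.08 after fasting (limma adjusted p = 0.974), and the list's median was 0.02.

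Of 12 measured receptors and liver transcription factors known for Fabp genes, 1 rose after fasting, 1 fell and 10 did not pass (median -0.01). The bile acid receptor gene Nr1h4 rose by 0.55 ± 0.09 (limma adjusted p = 0.0011), and Cebpa, a factor of hepatocyte differentiation, was at -0.39 ± 0.08 (limma adjusted p = 0.00614). Ppara itself was at -0.01 ± 0.13 (limma adjusted p = 0.985), Rxra, its partner, at 0.19 ± 0.08 (limma adjusted p = 0.209) and Hnf4a at 0.07 ± 0.10 (limma adjusted p = 0.753). On the high-fat diet 0 of the 12 passed, and Pparg was at -0.20 ± 0.08 (limma adjusted p = 0.691).

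Among other PPARalpha targets the calls after fasting were all increases, while Fabp1 was lower and Fabp2 higher. Of 11 measured targets 7 rose, 0 fell and 4 did not pass, with a median of 0.47. Among them Cyp4a14, a fatty acid omega-hydroxylase, rose by 3.38 ± 0.24 (limma adjusted p = 1.04e-07), Acot1, an acyl-CoA thioesterase, by 1.44 ± 0.21 (limma adjusted p = 0.000282), Vnn1, a pantetheinase, by 1.22 ± 0.10 (limma adjusted p = 1.02e-06) and Acadl, a long-chain acyl-CoA dehydrogenase, by 0.48 ± 0.09 (limma adjusted p = 0.00165). On the high-fat diet 0 of the 11 passed, with a median of -0.06, where Fabp2 was at 1.38. The same background shares as above, 7.93% and 0.349% of features, apply to these lists.

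Markers of cells known for Fabp2 and Fabp5 were set beside both genes. Of 22 enterocyte markers 14 were measured, and Apoa4, which liver also makes, was the single one past the threshold in any comparison. The other 13, among them the brush border gene Vil1 (0.16 after fasting and 0.08 on the high-fat diet) and the intestinal factor Cdx1 (0.03 and 0.05), lay between -0.34 and 0.16 after fasting and between -0.28 and 0.30 on the high-fat diet. Tff3 gave the -0.34 and the 0.30, and its pairs varied most, with a SD of 2.16 in the fasted and 1.33 in the high-fat pairs. The mean over all 14 ran from 0.04 to 0.71 in the fasted pairs and from 0.01 to 0.30 in the high-fat pairs. It includes Tff3 and also Apoa4, whose direct means were 4.99 and 1.60, so it does not describe the other markers. The 1 pancreatic acinar marker measured of 8, Cela2a, was at 0.14 in both.

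For Fabp5, 4 of 6 measured Kupffer cell and macrophage markers of 12 fell after fasting (median -0.44), with Cd5l at -0.68 ± 0.13 (limma adjusted p = 0.00221) and C1qc at -0.57 ± 0.11 (limma adjusted p = 0.00316). The calls of C1qa and Clec4f, the other 2, did not hold in 9 and 1 of the 15 fits that left out a mouse. On the high-fat diet 0 of 6 passed and the median was -0.23, whereas Fabp5 was at 1.31. Between fasted and high-fat livers 0 of 6 passed, with a median of -0.22 and a range from -0.41 to 0.07, beside -3.28 for Fabp5. Of 3 measured adipocyte markers of 10, Car3, a carbonic anhydrase that liver also makes, fell after fasting (-2.75 ± 0.25, limma adjusted p = 1.73e-06), Lep was at 0.09 and Lipe at -0.11. Of 6 endothelial markers 2 fell, Kdr (-0.30 ± 0.09, limma adjusted p = 0.0418) and Tek (-0.33 ± 0.10, limma adjusted p = 0.0449), calls lost when a single mouse was omitted in 11 and 10 of 15 cases. Of 6 neutrophil markers 1 fell, Camp (-2.14 ± 0.20, limma adjusted p = 3.55e-06), and 0 of 4 keratinocyte markers passed. Of 5 hepatocyte markers 1 rose, Tdo2, which degrades tryptophan (0.61 ± 0.14, limma adjusted p = 0.0122), and 1 fell, the thyroid hormone carrier Ttr (-0.74 ± 0.13, limma adjusted p = 0.00107). On first arrays alone Ttr was at 0.64. Of the list genes called after fasting, Apoa4, Cyp4a14, Acot1, Vnn1, Car3 and Camp passed under every alternative run, and the calls of all the others were lost with the direct pairs alone or under another alternative. The part of these cells in the Fabp5 ratios was not tested.

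The genes most like each member were named by Pearson's r over the 14 pair ratios, as a description of pairs that share mice and groups. This r depends on which group of a pair is put first, a free choice, so the lists hold for the order used here. For Fabp1 they were Srrm3, of microexon splicing (r = 0.96), Lect2, a secreted hepatocyte protein (0.93), Khk, ketohexokinase (0.90), Amacr, a racemase of branched fatty acids (0.90), and Gamt, of creatine synthesis (0.90). Fasted over control ratios of these 5 ran from -1.59 in Srrm3 to -0.37 in Amacr, beside -1.30 for Fabp1. The most opposite were As3mt, Aass and Car6, each with r = -0.92, and with fasted over control ratios of 1.16, 1.25 and 1.09.

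For Fabp5 the genes most alike were Phka1, a phosphorylase kinase subunit (r = 0.92), Srrm3 (0.90), Neu1, a lysosomal sialidase (0.88), Camp, cathelicidin (0.88), and Hsd3b1, a steroid dehydrogenase (0.87). Their fasted over control ratios ran from -2.14 in Camp to -0.18 in Neu1, beside -1.98 for Fabp5, and their high-fat over control ratios from 0.04 to 0.21, beside 1.31. Cyp4a14 (-0.95), Pkm, pyruvate kinase of muscle (-0.94), and Acot1 (-0.92) were the most opposite.

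The genes closest to Fabp2 by r had smaller ratios. They were Sprr2a1 (0.86), Cyth1 (0.84), Usp18 (0.84), Ifit1 (0.83) and Eif4a2 (0.82), and their high-fat over control ratios were at most 0.40, in Ifit1, an interferon-induced gene. Their fasted over control ratios were -0.14, -0.02, -0.16, -0.20 and 0.10 in the same order, beside 0.81 for Fabp2. Pearson's r is taken around each gene's mean over the pairs, so a high r does not require the same sign. Opposite to Fabp2 were Cyp3a41a, a cytochrome P450 (r = -0.92, high-fat over control -3.15), Hp, haptoglobin (r = -0.92, -0.81), and Scarb2, a lysosomal membrane protein (r = -0.89, -0.20). In fasted over control livers Cyp3a41a was at -0.09, Hp at 0.18 and Scarb2 at 0.11. Among the members themselves r was 0.75 for Fabp1 and Fabp2, 0.83 for Fabp1 and Fabp5, and 0.77 for Fabp2 and Fabp5, although Fabp2 differed from both in sign after fasting. These values too hold only for the order of groups used here, and do not show that the members changed together.

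**Figure D4:**
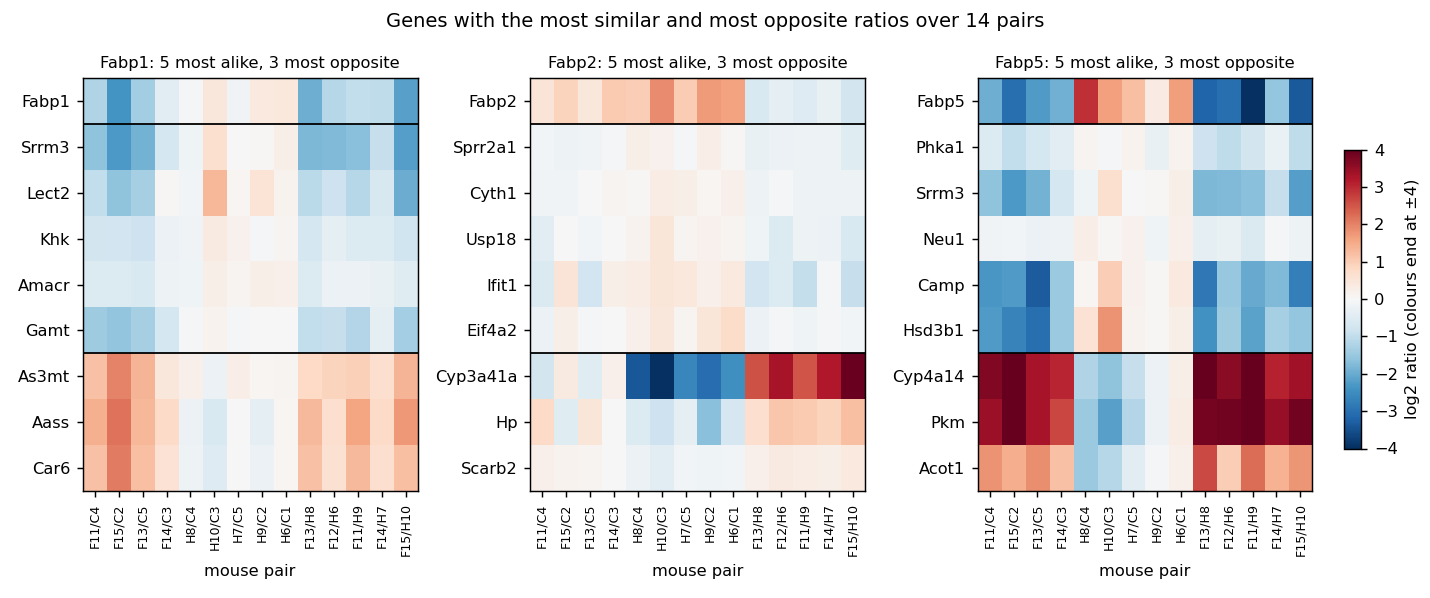
Colours give the log2 ratio in the 14 mouse pairs for each member, the 5 genes most like it and the 3 most opposite to it. Srrm3 follows Fabp1 (r = 0.96) and Fabp5 (0.90), Cyp4a14 runs opposite to Fabp5 (-0.95), and the genes most like Fabp2 are pale beside it.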

How the data were processed

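The deposited table holds 1 log2 ratio of the dyes per spot and array, processed by the authors, with limma named in the submitters' processing notes without version or role. No source used here gives the background correction, normalization, spot filters or genome build. Spots were named through the platform annotation (4799 symbols, all matched to RefSeq genes of GRCm38.p6 by Entrez number), spots of a gene were averaged, and unnamed spots stayed single, giving 11457 features. Within each swap the second array's sign was changed and both arrays were averaged into 1 pair value. The 14 pairs were fitted with 3 groups by generalised least squares in limma 3.58.1 and R 4.3.3 (eBayes after lmFit, with 12 residual degrees of freedom and 4.51 prior ones), with a between-mouse share of variance of 18.1%, the trimmed mean of estimates per feature, and Benjamini-Hochberg adjustment over all features at 0.05. Mice are separate animals, per the labels. The fit was tested on simulated data. Loop levels are least squares over 12 pairs. The members and gene lists were chosen with earlier results of these data known. Named genes are the members, genes of the fixed lists past the threshold (up to the 4 largest) and, per member, the 5 most and 3 least correlated genes, with a few more members of the lists, named after their values were seen, for their known roles. Figures were drawn with matplotlib 3.10.9. Alternatives were the between-mouse share, direct pairs alone, array centring and scaling, single arrays of a swap, single spots and the omission of each mouse, plus the omission of fasted 15 and control 2, chosen after seeing the data.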

Additional observations from a re-analysis of the deposited data

How the results depend on the processing

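Across the omissions of each of 15 mice the members' ratios moved by less than the spread between pairs. Fabp1 of fasted over control ran from -1.51 to -1.02, Fabp2 of high-fat over control from 1.27 to 1.48, and Fabp5 from -2.17 to -1.67 after fasting and from 1.03 to 1.60 on the high-fat diet. Scaling arrays to a common spread moved Fabp1 of high-fat over control to 0.61 and Fabp2 of fasted over high-fat to -0.84. First arrays alone, which leave the dye bias in, gave -0.28 for Fabp1 and 1.38 for Fabp2 of fasted over control, 0.74 for Fabp1 of high-fat over control and -0.28 for Fabp2 of fasted over high-fat. Second arrays alone gave -2.32, 0.24, -0.37 and -0.86. Ttr of fasted over control was at 0.64 on first arrays, the reverse of its averaged sign.

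The number of features past the threshold depended on the setting. For fasted over control it was 909 in the fit reported, 114 with direct pairs alone, 3628 with first arrays alone and 515 to 1002 without single mice (515 without fasted 11, 551 without control 5, 558 without control 4). For fasted over high-fat it was 625, 156 with direct pairs, 1090 with first and 160 with second arrays, and 361 to 850 without single mice (361 without fasted 11, 393 without high-fat 8). For high-fat over control it was 40, 19 with a between-mouse share of 0.5, 22 with direct pairs, 88 with scaled arrays, 645 with first and 93 with second arrays, 62 without the pair of fasted 15 and control 2, and 14 to 75 without single mice, lowest without high-fat 9 and highest without fasted 15, with 10 of 15 omissions moving it by over 1.5 times (also control 3, 4 and 5, fasted 11, 13 and 14, and high-fat 7 and 8). Of 40 calls of single genes in the lists, 25 were lost with direct pairs alone, 20 with second arrays alone, 4 lost or reversed with first arrays alone and 9 lost in at least 1 omission of a mouse. The cause was not tested, except that fewer pairs enter the direct fits. No paired analysis was possible because each replicate number, as opposed to the hybridised pairs that enter every fit, belongs to 1 mouse and is shared by no other group.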
